A study of Mus musculus with 4 samples.

Results

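The comparison described here is between interscapular brown adipose tissue (iBAT) of mice that lack ASK1 and iBAT of wild-type (WT) mice. It rests on 2 of the 4 arrays of the series, 1 labelled ASK1KO and 1 labelled wildtype, and the other pair holds epididymal white adipose tissue (eWAT) of the same genotypes. Each array was hybridized with Cy3-labelled RNA mixed from 3 male mice aged 10 weeks, kept under the condition the labels call normal. No treatment is named in the labels. According to the methods the mice were of the C57BL/6J strain, the deficiency is of the whole body and not of adipocytes alone, and WT and ASK1-deficient mice were bred separately and were not littermates. Feeding state and time of day at collection are not given in the sources used here. All genes with at least 1 probe well above background on both iBAT arrays were taken, which gave 14469 of the 22221 named genes on the array. With 1 pool per genotype there is no replicate, so the spread between mice is not known, no test was run, and the values below are sizes. The technical spread is known only from probes printed on several spots. For 276 such probes the median SD of the log2 ratio was 0.087, and 95% of these probes lay below 0.27.

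Brown adipocytes burn fatty acids and glucose and release the energy as heat through the uncoupling protein Ucp1 of the inner mitochondrial membrane. Noradrenaline from sympathetic nerves drives this through β-adrenergic receptors, cAMP and protein kinase A, which also switch on the transcription of thermogenic genes, in part through p38 MAP kinase. ASK1, encoded by Map3k5, is a kinase that activates p38 and JNK in response to stresses, and the study asked what its loss does to gene expression in fat.

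Map3k5 itself was measured by a pair of probes on chromosome 10 (mm9), with unlike results. The ends of the upstream probe lie 857 bases apart in the genome, at chr10:19860474-19861330 on the plus strand, so that it crosses a splice junction. Its sequence and that of the Ucp1 probe, at chr8:85821788-85821847 on the plus strand, are shown because the labels and the tissue are checked with them.
Map3k5 probe: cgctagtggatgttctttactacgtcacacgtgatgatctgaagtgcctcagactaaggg
Ucp1 probe: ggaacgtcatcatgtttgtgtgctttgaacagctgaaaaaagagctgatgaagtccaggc
At the Map3k5 probe shown, the signal was 448 in WT and 117 in ASK1KO iBAT. At the other Map3k5 probe, which lies nearer the 3′ end of the transcript, at 19862193 to 19862252, the signals were 1081 and 1082, a log2 ratio of -0.06. The signal was thus lower in ASK1KO at the upstream probe and equal at the other. Which bases of Map3k5 were removed in these mice is not given in the sources used here, and a probe outside the removed part checks nothing.

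The tissue label was checked with defining markers. The Ucp1 signal was 343275 in WT iBAT and 263161 in ASK1KO iBAT, and Zic1 and Lhx8, which mark the interscapular brown lineage, were detected well above background in both genotypes. Of the markers of white and beige fat, Hoxc9, Hoxc10, Tcf21, Wt1 and Tmem26 were not well above background on either array, but 12 of the 18 listed were measured on both, among them Lep, Retn, Agt, Nnat, Tbx1 and Cd40. Transcripts of skeletal muscle, which lies next to the interscapular depot, were present on both. Myh4, a fast myosin heavy chain, gave 106463 in WT and 104259 in ASK1KO iBAT, and Acta1, skeletal actin, gave 38944 and 45920. The 32 muscle genes measured had a median log2 ratio of 0.02, with values between -0.52 and 0.45 and a sign that turned with median centring and a median of 0.12 after loess, and their summed scaled signal was 1879 in WT and 1870 in ASK1KO.

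Across all 14469 genes the median log2 ratio was -0.07 and its SD was 0.36. At least 2-fold higher in ASK1KO iBAT were 121 genes, or 0.836% of those measured, and 147 genes, or 1.02%, were at least 2-fold lower. At least 1.5-fold higher were 657 genes (4.54%), and 615 genes (4.25%) were at least 1.5-fold lower. The genes at least 2-fold apart were 1.85% of all genes, and of these 45.1% were on the higher side. That share was 58.7% where the scaling percentile was taken over the probes well above background and 32.7% after median centring, so neither direction prevailed under all scalings. The ratio also varied with brightness. For probes with a mean signal under 100 the median log2 ratio was 0.04, and for probes above 10000 it was -0.17, a slope that loess normalization reduced to 0.02 and -0.03. Values after loess are therefore given beside the medians of lists in which bright genes are many and the value moved.

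**Figure D1:**
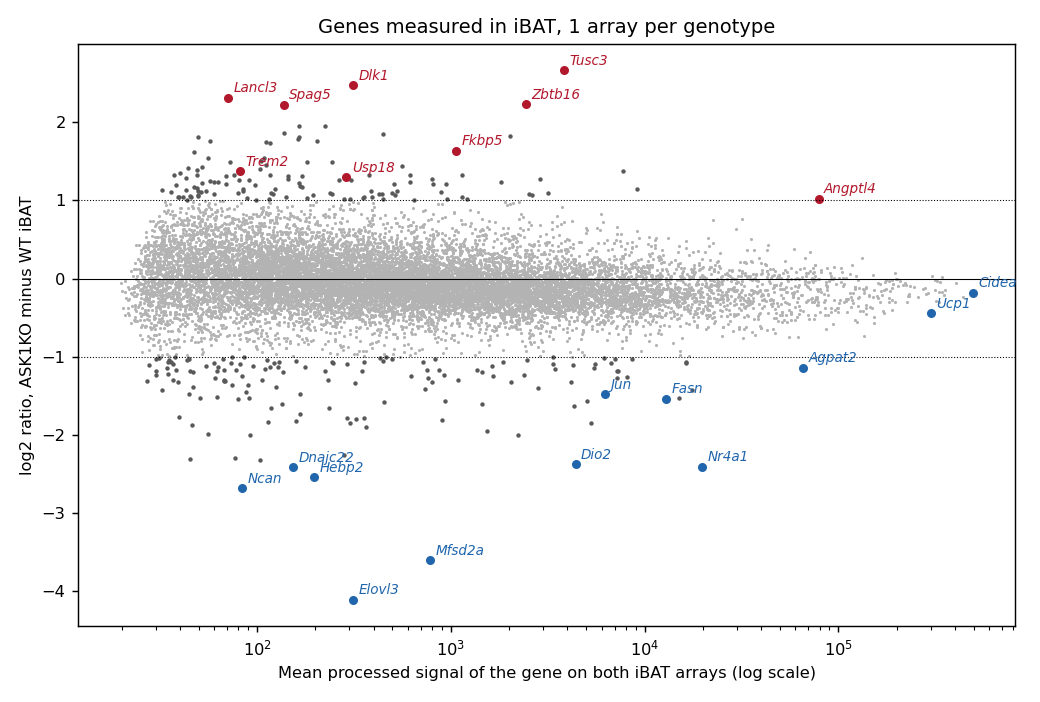
Log2 ratio of each of the 14469 genes measured in iBAT (ASK1KO minus WT, 1 array each) against the geometric mean of its processed signal on both arrays, on a log axis. Dotted lines mark 2-fold, dark grey points lie beyond them, and selected genes are named in red where higher and in blue where lower. Elovl3 at -4.10 and Mfsd2a at -3.60 stand lowest, Tusc3 at 2.66 and Dlk1 at 2.47 stand highest, and Ucp1 at -0.44 and Cidea at -0.18 lie within the dotted lines at the bright end.

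The lowest gene of all was Elovl3, an enzyme that elongates saturated very long chain fatty acids and is a classical cold-induced gene of brown fat. Its signal was 1276 in WT and 77.4 in ASK1KO iBAT, 17.2-fold lower, and its log2 ratio of -4.10 lay between -4.19 and -3.15 under the alternatives. Next came Mfsd2a, a transporter of lysophosphatidylcholine that is also known to be induced in brown fat by cold, with 2673 in WT and 229.6 in ASK1KO, 12.1-fold lower. Nr4a1, an orphan nuclear receptor and immediate early gene, gave 44511 and 8787, a log2 ratio of -2.40. Dio2, the deiodinase that turns thyroxine into active thyroid hormone inside brown adipocytes, gave 9820 and 1978, a log2 ratio of -2.37. These 4 genes were lower in eWAT as well where they could be measured there: Nr4a1 had -0.87 and Dio2 -1.02, while Elovl3 and Mfsd2a were well above background in WT eWAT alone. The remaining genes among the 15 lowest are of diverse function. They were Ncan (-2.68), Hebp2 (-2.54), Dnajc22 (-2.42), the glycogen-targeting phosphatase subunit Ppp1r3g (-2.32), Sh3rf2 (-2.30), villin (Vil1, -2.29), transferrin receptor 2 (Tfr2, -2.26), the secreted phospholipase Pla2g2e (-2.01), the MAP kinase phosphatase Ptpn7 (-1.98), the mitochondrial carrier Slc25a34 (-1.95) and the small nucleolar RNA Snora47 (-1.90). Of these 15, 13 stayed at least 2-fold lower under the alternatives. With normexp background correction Sh3rf2 became -0.97 and Ptpn7 -0.96, and the value nearest to 0 was -1.16 for Vil1, -1.11 for Pla2g2e, -1.38 for Ppp1r3g, -1.56 for Ncan, -1.83 for Hebp2 and -1.67 for Dnajc22. The Slc25a34 probe gave 2963 in WT and 802.5 in ASK1KO.

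At the other end, Tusc3, a subunit of the complex that attaches N-linked sugars to proteins, had the highest log2 ratio, with signals of 1500 in WT and 9904 in ASK1KO iBAT, 6.33-fold higher. In eWAT its log2 ratio was -0.07. Dlk1, also called Pref-1, is made by preadipocytes and restrains their differentiation. Its probes gave 41.5 in WT and 297 in ASK1KO, and 411 and 1932, log2 ratios of 2.78 and 2.17. Zbtb16, a zinc finger repressor known to respond to glucocorticoids, gave 1106 and 5400, a log2 ratio of 2.23, and 0.93 in eWAT. Tusc3 and Zbtb16 kept log2 ratios above 2 under the alternatives, whereas Dlk1 was as low as 1.79. Others of the 15 highest were Lancl3 (2.31), the spindle protein Spag5 (2.22), Cdhr5 (1.86), the serine protease Prss12 (1.85), corneodesmosin (Cdsn, 1.82), the growth regulator Myc (1.81), Ms4a4a (1.81), the PI3-kinase inhibitor Pik3ip1 (1.76) and the homeobox gene Vsx1 (1.76). The last 3 were Mup20 (1.95), Serpina1c (1.95) and Serpina1e (1.78), secreted proteins made mainly by liver, whose probes may share signal among near-identical family members. Of these 15, 13 stayed at least 2-fold higher under the alternatives. With normexp background correction Ms4a4a became 0.62 and Vsx1 0.73, and the lowest value was 1.22 for Lancl3, 1.15 for Mup20, 1.48 for Spag5 and 1.24 for Cdhr5.

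The genes selective for brown adipocytes were mostly lower, by small amounts, with a few far lower. Of 28 listed, 27 were measured, 25 of them lay below 0 beside 59.5% of all genes, and 4 were at least 2-fold lower, 14.8% against 1.02% of all genes. The median was -0.30 beside -0.07 for all genes, and -0.15 after loess normalization, when 18 of the 27 were below 0. Besides Elovl3 and Dio2, the 4 were Acot11, a thioesterase first known as a cold-induced gene of brown fat, with 24916 in WT and 9064 in ASK1KO, and the glycerol kinase gene Gk, with a log2 ratio of -1.25. Ucp1, which carries heat production itself, had a log2 ratio of -0.44, between -0.53 and -0.30 under the alternatives. That was closer to 0 than the values of those 4 genes and farther from 0 than the median of the list. Cidea, a lipid droplet protein, gave 514381 in WT and 473797 in ASK1KO, a log2 ratio of -0.18. These were the highest signals of the 2 arrays, for which quantile normalization must give 0, so the 0 it gave says nothing of direction. Under the other alternatives the ratio stayed below 0, at -0.27 at the lowest. The difference is small, and without a replicate its direction is not settled. No spot of either array was saturated. In a whole tissue, fewer cells of a type and less RNA of the gene in each cell cannot be told apart.

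Regulators of the brown program varied. Ppargc1a, the coactivator of mitochondrial biogenesis, gave 6703 in WT and 4152 in ASK1KO at one probe, a log2 ratio of -0.75, and 231 and 255 at the other, a log2 ratio of 0.08. Prdm16, which fixes brown fate, gave 838 and 632, a log2 ratio of -0.47 that stayed between -0.55 and -0.38 under the alternatives. Zic1, with log2 ratios of -0.41 and 0.12, Lhx8, with 0.10, and Ebf2, with -0.09, mark the lineage, and the first was divided between its probes. So the lineage markers were not lower to the extent of Dio2 or Elovl3. Pparg, the master regulator of adipocytes, had a log2 ratio of -0.28, Plin1, the perilipin that coats the lipid droplet, had -0.32, and Adipoq, adiponectin, had 0.13. Of the 16 genes common to all adipocytes 12 lay below 0 beside 59.5% of all genes, with a median of -0.28. After loess 10 were below 0 and the median was -0.16.

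**Figure D2:**
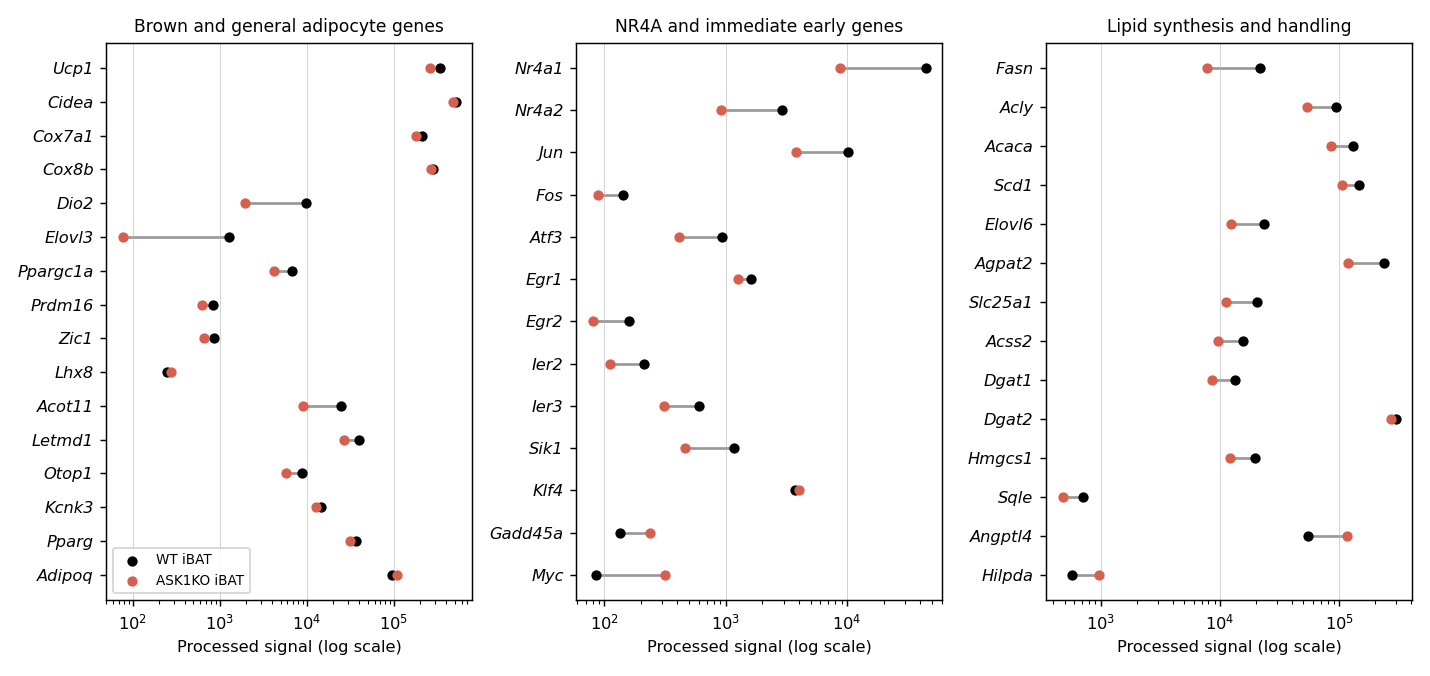
Processed signal of the WT array (black) and the ASK1KO array (red) in iBAT for 3 groups of genes, on log axes, at the brightest measured probe of each gene and before scaling between arrays. Each point is 1 array of RNA from 3 mice. Elovl3 (1276 and 77.4), Dio2 (9820 and 1978), Nr4a1 (44511 and 8787) and Nr4a2 show the widest gaps toward WT. Fasn (21571 and 7757) lies the same way, and Myc (85.9 and 314.6) and Angptl4 (54326 and 114882) lie the other way.

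Signal reception ahead of ASK1 was mixed. The receptor Adrb3, the main β-adrenergic receptor of rodent fat, gave 23938 in WT and 19344 in ASK1KO at its brighter probe, and its mean log2 ratio was -0.45. Adrb1 had -0.97 over its probes, from -1.12 to -0.82. Values on both sides of 0 ran through the whole list of adrenergic and cAMP genes, whose 23 measured members had a median of -0.06 with a sign that depended on scaling. At least 1.5-fold lower were 5, 21.7% against 4.25% of all genes, which became 3 after loess. At least 1.5-fold higher were 2, 8.7% against 4.54% of all genes. Gnas and Adcy3 each had -0.64. The soluble adenylyl cyclase Adcy10, a dim member, gave 133 in WT and 47.6 in ASK1KO, a log2 ratio of -1.54 that became -0.72 with normexp background correction. Rgs2, which dampens G protein signals, had 0.70, and the phosphodiesterase Pde4d -0.67. Of the kinases around ASK1, the related kinase Map3k6 (ASK2) was the one higher by over 1.5-fold, with probes at 2979 in WT and 5634 in ASK1KO and at 2376 and 4905, a mean log2 ratio of 0.92, beside 0.55 in eWAT. The p38 genes Mapk14, at -0.17, and Mapk11, at 0.02, were near the median of all genes, while Mapk13 had -0.66 from a dim probe. Dusp10, a phosphatase that switches off p38 and JNK, gave 1238 and 668, a log2 ratio of -0.95. Atf2, a p38 target that binds the Ucp1 and Ppargc1a genes, had -0.38.

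The immediate early genes, which cAMP and MAP kinases switch on within minutes, were by number the list, of the 36 described, with the most members at least 2-fold apart. By share the list of liver-type secreted genes stood higher, with 5 of 13 measured. Of 30 listed, 28 were measured, 8 were at least 2-fold lower and 2 at least 2-fold higher, 28.6% and 7.14% against 1.02% and 0.836% of all genes. The median was -0.37, and -0.25 after loess. Nr4a2, a close relative of Nr4a1, gave 2936 in WT and 909.8 in ASK1KO at one probe and 928 and 266 at the other, log2 ratios of -1.75 and -1.86. Jun, a subunit of AP-1, gave 10171 and 3806, and Sik1, a kinase induced by cAMP, gave 1170 and 459. Atf3 gave 940 and 414. Ier3 had a log2 ratio of -1.02 and Egr2 of -1.04. Not every member was lower. Myc gave 85.9 in WT and 314.6 in ASK1KO, Ccn2 (CTGF) had a log2 ratio of 1.02, and Klf4, at 0.05, and Fosb, at -0.06, were level. In eWAT the list had a median of -0.31, but Nr4a2 there was level, at 0.03, and Jun had -0.20.

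The promoters of 4 genes are shown, because the DNA element that cAMP-responsive factors bind, the CRE, and the element of interferon-responsive factors, the ISRE, could be searched in them. Each is the 250 bases before the RefSeq start on assembly GRCm38.p6, written in the direction of transcription. In the first 3 the capitals mark the CRE half-site TGACG or its reverse CGTCA, and in the last the ISRE, which was searched as GAAA, any 2 bases and GAAA, or on the other strand TTTC, any 2 bases and TTTC.
Nr4a1, chr15:101266596-101266845, plus strand: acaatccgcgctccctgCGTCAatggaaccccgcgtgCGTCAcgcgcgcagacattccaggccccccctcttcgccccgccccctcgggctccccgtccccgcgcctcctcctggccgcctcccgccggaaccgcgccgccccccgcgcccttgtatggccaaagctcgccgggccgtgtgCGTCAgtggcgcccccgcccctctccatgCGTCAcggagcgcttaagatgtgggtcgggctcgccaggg
Atf3, chr1:191183334-191183583, minus strand: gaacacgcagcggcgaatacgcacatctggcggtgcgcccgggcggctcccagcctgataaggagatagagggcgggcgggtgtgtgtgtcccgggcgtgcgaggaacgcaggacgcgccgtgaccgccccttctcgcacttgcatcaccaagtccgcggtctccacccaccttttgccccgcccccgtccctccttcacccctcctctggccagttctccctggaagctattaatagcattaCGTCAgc
Dio2, chr12:90739039-90739288, minus strand: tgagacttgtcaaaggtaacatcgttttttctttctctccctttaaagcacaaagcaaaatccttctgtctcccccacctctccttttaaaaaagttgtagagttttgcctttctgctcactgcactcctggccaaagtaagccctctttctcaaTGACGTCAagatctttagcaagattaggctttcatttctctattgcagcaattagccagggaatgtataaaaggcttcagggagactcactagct
Ifit1, chr19:34640639-34640888, plus strand: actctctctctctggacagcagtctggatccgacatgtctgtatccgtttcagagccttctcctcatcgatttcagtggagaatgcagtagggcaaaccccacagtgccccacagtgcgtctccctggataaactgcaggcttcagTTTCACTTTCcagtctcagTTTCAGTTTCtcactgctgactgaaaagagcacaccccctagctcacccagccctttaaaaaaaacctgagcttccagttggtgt
Nr4a1 holds 4 half-sites, Atf3 holds 1, and the pair in Dio2 overlap as the full palindrome TGACGTCA, 95 bases before the start. Of the 22 immediate early genes with a promoter in the table, 13 hold a half-site within 250 bases, 59.1%, beside 28.5% of genes measured in iBAT and 19.8% of all genes in the table. Of the brown-selective genes it was 4 of 19. The full CRE was found in 1 of the 22 immediate early genes, 4.55%, beside 2.88% of genes measured in iBAT and 1.77% of all genes. The element of NR4A receptors, NBRE, with the letters AAAGGTCA, was found in 1.55% of all genes and in 0 of the 22 immediate early genes. Both strands were searched, and the half-site count includes the full element. A match describes these letters and shows no binding. The shares describe the lists, whose lower and higher members were pooled, and not the difference between the arrays. Of Sik1 and Elovl3 no promoter is shown.

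Genes of fatty acid and triglyceride synthesis formed the list with the lowest median. All 26 were measured, 24 lay below 0 beside 59.5% of all genes, and 12 were at least 1.5-fold lower, 46.2% against 4.25% of all genes, which became 8 after loess. None was at least 1.5-fold higher. The median was -0.56, and it stayed between -0.65 and -0.45 under the alternatives. Fasn, which builds palmitate, gave 21571 in WT and 7757 in ASK1KO, 2.90-fold lower. Its supply of acetyl-CoA runs through the citrate carrier Slc25a1, with a log2 ratio of -0.93, and ATP citrate lyase (Acly), with signals of 93995 and 53573. Acaca, which makes malonyl-CoA, had all 4 probes between -0.71 and -0.59. These genes of the route from citrate to palmitate were thus all lower. Elovl6, which lengthens palmitate, had a log2 ratio of -0.99, and Agpat2, which adds the second acyl chain to glycerol phosphate, gave 237120 and 118203, beside 38666 and 17369. Scd1, the desaturase, had -0.55, Dgat1 -0.71 and Dgat2 -0.19. Of the transcription factors behind them, Srebf1 had -0.56 and Mlxipl (ChREBP) -0.14. In eWAT the same list had a median of 0.11, with 16 of 25 measured genes above 0 beside 54.1% of all genes measured there, and Fasn had 0.60 there. The difference between depots was not tested.

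Sterol genes lay low as well. Of 25 listed, 24 were measured, 22 were below 0 beside 59.5% of all genes, and 9 were at least 1.5-fold lower, 37.5% against 4.25% of all genes, which became 5 with normexp background correction and 6 after loess. None of the 24 was at least 2-fold lower, and the median was -0.48. Hmgcs1 gave 19790 in WT and 12163 in ASK1KO, and Pmvk had a log2 ratio of -0.92. Among genes of lipid uptake and storage, 2 secreted regulators of lipoprotein lipase stood at opposite ends. Angptl4, which inhibits the lipase and is known to be induced by fasting and glucocorticoids, gave 54326 in WT and 114882 in ASK1KO. Angptl8, which is known to be induced by feeding, gave 8570 and 4412. In eWAT they were on the same sides, with 0.74 and -0.77. Lpl itself had -0.53, Plin2 -0.65, Cidec -0.63 and the lipase inhibitor G0s2 -0.54, and Hilpda, a lipolysis inhibitor of the droplet, had 0.69.

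Oxidative genes were lower by small and even amounts. Of 67 subunits of the respiratory chain and ATP synthase, all were measured, 65 lay below 0 beside 59.5% of all genes, and 0 were at least 2-fold apart. Their median was -0.24, which became -0.12 after loess, with 58 below 0, and in eWAT, where 56 of the 67 were above 0 beside 54.1% of all genes there, it was 0.06. Of the 67, 62 had a mean signal above 10000, where the median over all probes was itself -0.17. The direction of some members was not settled. Cox4i1 gave 193681 in WT and 201241 in ASK1KO, a log2 ratio of -0.01 whose sign depended on the scaling, and Cox8b had -0.13, which turned after loess. Cox7a1, at -0.30, kept its sign under the alternatives, between -0.38 and -0.15. Cycs, cytochrome c, had probes at -0.31 and -0.28 and a dim probe at -1.24. The TCA cycle had a median of -0.22 over 17 genes, 16 of them above 10000, and -0.08 after loess. Branched-chain amino acid breakdown had -0.29 over 21 genes, and -0.19 after loess. Fatty acid oxidation had -0.31 over 31 genes, and -0.17 after loess, with clear exceptions in size. Acsl5, an acyl-CoA synthetase, gave 7403 and 2508, a log2 ratio of -1.62, and Acads had -0.79. Ehhadh had 0.50.

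Of the genes of glucose use, Slc2a5, a fructose transporter, gave 2465 in WT and 849 in ASK1KO, a log2 ratio of -1.60, and the mitochondrial pyruvate carrier had -0.64 for Mpc1 and -0.75 for Mpc2. The insulin-responsive transporter Slc2a4 had -0.33. Aldoc, at 0.77, and Eno2, at 0.63, lay the other way, and the 32 genes had a median of -0.29, or -0.14 after loess. Genes of the creatine and calcium cycles, which can also release heat, were on both sides of 0. Sln, sarcolipin, which uncouples the calcium pump of muscle and is in this list for that cycle, gave 284 in WT and 545 in ASK1KO, a log2 ratio of 0.88. Gatm, of creatine synthesis, had 0.85 and the creatine kinase Ckb 0.61, while the mitochondrial Ckmt2 had -0.35 and Ckm -0.12, whose sign turned with quantile normalization. The 12 measured genes of these cycles had a median of 0.15, which became 0.27 after loess, and 3 were at least 1.5-fold higher beside 4.54% of all genes, or 2 with normexp background correction.

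Markers of macrophages showed the highest median of all lists. Of 30 listed, 26 were measured, 23 lay above 0 beside 40.5% of all genes, and 17 were higher by 1.5-fold or more, 6 of them by 2-fold or more, 65.4% against 4.54% and 23.1% against 0.836% of all genes. The median was 0.75 and lay between 0.58 and 0.84 under the alternatives. The 6 were Trem2 and Gpnmb, known from lipid-laden macrophages, Lyve1, which is also made by lymphatic endothelium and resident macrophages, and Mpeg1, Ctss and Fcgr1. With normexp background correction all 6 lay under 2-fold, Trem2 at 0.63, Lyve1 at 0.54 and Fcgr1 at 0.22 on the log2 scale and the others between 0.92 and 0.99, and 13 in place of 17 were at least 1.5-fold higher. Trem2 gave 49.8 in WT and 134.6 in ASK1KO, Gpnmb 89.2 and 232, and Lyve1 42.9 and 112. Ctss, a lysosomal protease, was brighter, with 775 and 1666, and Mpeg1, a pore-forming protein of phagosomes, had 334 and 745. The defining markers lay on the same side. Cd68 gave 384 and 687, C1qa 521 and 989, Lyz2 339 and 621, and Adgre1, the F4/80 antigen, 258 and 383 at its brighter probe. The 3 members below 0 included Ccr2, a receptor of recruited monocytes, with 108 and 60.4. The summed scaled signal of the list was 68.6 in WT and 96.5 in ASK1KO, and 2 genes, Spp1 and Timd4, were not well above background on either array. In eWAT the list had a median of -0.06.

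Chemokines, MHC genes and interferon-stimulated genes lay higher too. Of 32 chemokines and cytokines 17 were measured and 16 were above 0, beside 40.5% of all genes, with a median of 0.49 that became 0.29 with normexp background correction. Ccl8 gave 194 in WT and 486 in ASK1KO, Ccl6 gave 591 and 1326, and Ccl9 gave 243 and 520. Tnf, Il6, Il1b and Il10 were not well above background on either array. In eWAT 20 of 24 measured were below 0, beside 45.9% of all genes there, with a median of -0.67. Of the MHC list 19 of 21 measured genes were above 0, beside the same 40.5%, with a median of 0.41. Its highest member was Psmb8, an immunoproteasome subunit, at 1326 and 2727, and B2m gave 36578 and 51377.

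The interferon-stimulated list had 36 of 38 measured genes above 0 beside 40.5% of all genes, 11 at least 1.5-fold higher, 28.9% against 4.54%, and a median of 0.46, between 0.37 and 0.54 under the alternatives. Usp18, which shuts off the interferon receptor, gave 181 in WT and 463 in ASK1KO, Bst2 (tetherin) gave 2136 and 4766, and Ifit1 gave 92.8 and 168. Ifi27l2a went the other way, with 111829 and 78266. In the promoters, 14 of 28 listed genes hold an ISRE within 250 bases of the start, beside 3.18% of genes measured in iBAT. Ifit1 holds 2 of them in the sequence shown, 104 and 85 bases before its start. Interferon-induced genes are known to carry this element, so the share describes the list and not the difference between the arrays. In eWAT the median of the list was 0.03.

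**Figure D3:**
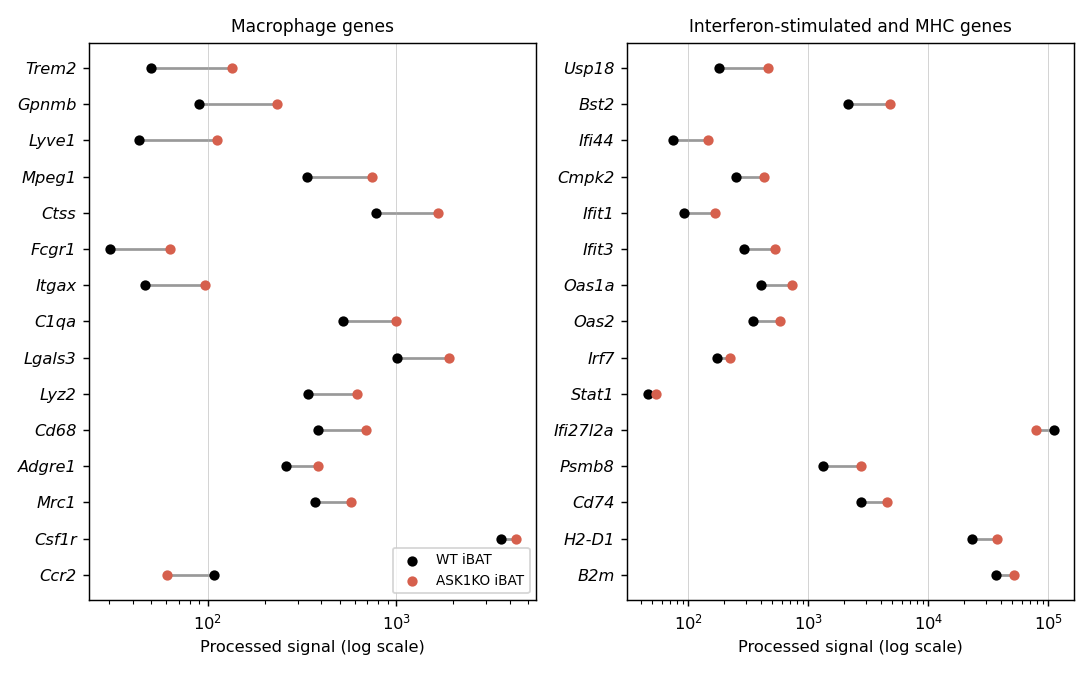
Processed signal of WT iBAT (black) and ASK1KO iBAT (red) for macrophage genes on the left and for interferon-stimulated and MHC genes on the right, on log axes, at the brightest measured probe of each gene. The red point lies to the right for every gene shown except Ccr2 (108 and 60.4) and Ifi27l2a (111829 and 78266), and macrophage signals run from 30.1 for Fcgr1 in WT to 4303 for Csf1r in ASK1KO.

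Medians of the markers of other cell types were closer to 0. T and NK lymphocyte genes had a median of 0.13 over 17 measured, with 0 at least 1.5-fold apart and a summed scaled signal of 16.4 in WT and 15.3 in ASK1KO, and Cd8a was not well above background on either array. Of the B cell list 6 of 14 were measured. Cd79a gave 759 and 531, whereas Jchain, made by antibody-secreting cells, gave 62.5 and 216. The neutrophil and mast cell list had a median of 0.01 with no settled sign. Endothelial and pericyte genes had a median of 0.20 over 27, which became 0.30 after loess, and 22 of the 27 were above 0 beside 40.5% of all genes. At least 1.5-fold higher were 4 of them, 14.8% against 4.54% of all genes, namely Lyve1 (1.32), Sox18 (0.88) and the smooth muscle genes Myh11 (0.67) and Tagln (0.65). With normexp background correction 2 were. The defining markers Pecam1, Cdh5 and Kdr had 0.12, 0.01 and -0.16. All 10 measured erythrocyte genes were below 0 beside 59.5% of all genes, and 9 after loess or with normexp background correction, with a median of -0.32 that became -0.21 after loess, and 5 of them had a mean signal above 10000. Their values ran from Hemgn at -0.53 and Hbb-bt at -0.46 to -0.12, with Hba-a1 at -0.19, and the globin probes may share signal. The part of these marker values in the results above was not tested.

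Genes of the stroma lay slightly higher. Of 30 measured collagen and matrix genes 29 were above 0, beside 40.5% of all genes, with a median of 0.30. At least 1.5-fold higher were 5, 16.7% against 4.54% of all genes, and 1 with normexp background correction. Among the fibrillar collagens Col1a1 had 0.14 and Col3a1 0.17, while Col5a1 had 0.51 and Col5a2 0.61. Thbs2 had 1.04, or as low as 0.30 under the alternatives, Thbs1 0.81, Timp1 0.77 and Mmp3 0.79, whereas the crosslinking enzyme Loxl1 gave 1339 in WT and 723 in ASK1KO. Among 16 measured preadipocyte and fibroblast genes 13 were above 0, beside the same 40.5%, with a median of 0.30. Besides Dlk1, Clec3b gave 503 and 1267, and the progenitor marker Pdgfra had 0.36. The 3 members below 0 were Dpp4 (-0.24), Pi16 (-0.26) and Zfp423 (-0.28). Of the 16, 4 were at least 1.5-fold higher, beside 4.54% of all genes, and 2 with normexp background correction. The imprinted gene Mest, whose level is known to follow the expansion of fat, had 0.69, or as low as 0.19 under the alternatives.

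**Figure D4:**
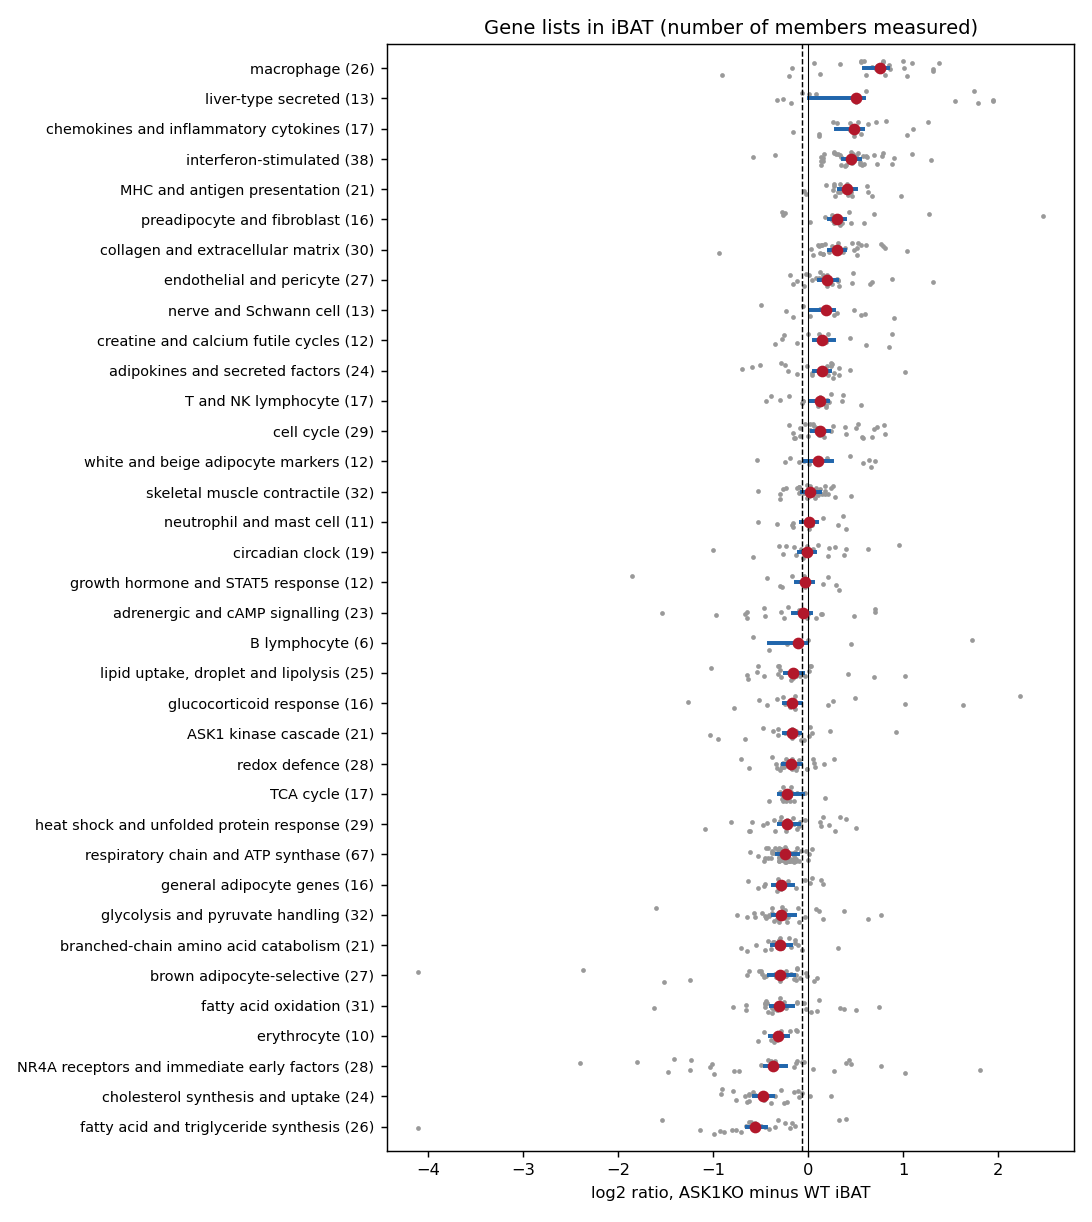
Log2 ratio in iBAT (ASK1KO minus WT) of every measured member of 36 gene lists (grey points, jittered vertically), with the median of each list (red) and the range of that median over the main and alternative settings (blue bar). The number of members measured stands in brackets, the solid line is 0 and the dashed line is the median of all genes, -0.07. The macrophage list has the highest median, 0.75, and fatty acid and triglyceride synthesis the lowest, -0.56.

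Hormone-responsive genes gave no single direction as lists but had members far from 0. Of the glucocorticoid list Zbtb16 had 2.23, Fkbp5, a chaperone of the receptor, gave 594 in WT and 1926 in ASK1KO, and Angptl4 had 1.02. Tsc22d3 (GILZ) had 0.50, but Ddit4 (REDD1) gave 10970 and 4760, Sgk1 had -0.32 and Per1 -0.26, and the median over 16 genes was -0.17, or -0.09 after loess. Cish, a target of STAT5 downstream of growth hormone, gave 9788 and 2832, a log2 ratio of -1.85, and -1.11 in eWAT. Socs2, of the same family, had -0.43, and the median of the list changed sign with the scaling. Txnip, which binds thioredoxin and is known to be induced by glucose, is a member of none of the lists and was chosen after its values were seen. Its log2 ratio was 1.38, with the lower of its probes at 1.26, and 0.86 in eWAT.

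Some genes were well above background on 1 iBAT array alone, so that only a lower bound of the difference can be given. This held for 629 genes in ASK1KO, 74 of them with a bound of at least 2-fold, and for 169 genes in WT, 54 of them with such a bound. The bound divides the bright scaled signal by that of the dim probe or, if this was larger, by the detection floor of its array, the smallest signal called well above background. By far the largest was Gbp2b, an interferon-inducible GTPase, at least 19.7-fold and 18.7-fold higher in WT at its probes, which gave 326 and 309 in WT and 4.66 and 3.90 in ASK1KO. In WT eWAT these probes gave 960.4 and 999, and in ASK1KO eWAT 19.9 and 22.8. Its relatives Gbp2, at 0.52, and Gbp3, at 0.27, were not lower. The other large bounds on the WT side were Olfr620 (at least 10.6-fold), Vmn1r85 (5.86-fold), Draxin (5.74-fold), Prss29 (5.47-fold) and Muc3 (5.12-fold). On the ASK1KO side they were Sox14 (at least 6.37-fold), Fkbp11 (5.76-fold), Alb (5.62-fold), Ahsg (5.23-fold), Elavl2 (4.27-fold) and Tmc1 (4.05-fold). Except for Gbp2b each rests on 1 probe well above background, with a signal of at most 175.

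Most genes that were far apart in iBAT were not far apart in eWAT, but the share that was not was smaller than among all genes. Of the 251 genes at least 2-fold apart in iBAT that were measured in eWAT, 182, or 72.5%, lay within 1.5-fold there, beside 97.2% of all 14148 genes measured in both. In eWAT 0.291% of all genes were higher by 2-fold or more and 0.872% lower, 1.16% together, and 1.38% were higher and 2.67% lower by 1.5-fold or more. At least 2-fold higher in both were 3 genes and at least 2-fold lower in both 10, while 11 were higher in iBAT and lower in eWAT by that size and 2 the reverse. The lists differed likewise. Macrophage, chemokine, lipid synthesis and respiratory chain lists lay away from 0 in iBAT with medians of 0.75, 0.49, -0.56 and -0.24, and had -0.06, -0.67, 0.11 and 0.06 in eWAT. The brown-selective list had medians of -0.30 in iBAT and -0.27 in eWAT, but its members differed between the depots. Ucp1 had -0.44 in iBAT and -4.63 in eWAT, Cidea -0.18 and -2.23, and Fabp3 -0.11 and -3.02, while Gk had -1.25 and -0.02. No difference between depots was tested, since each has 1 array per genotype.

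**Figure D5:**
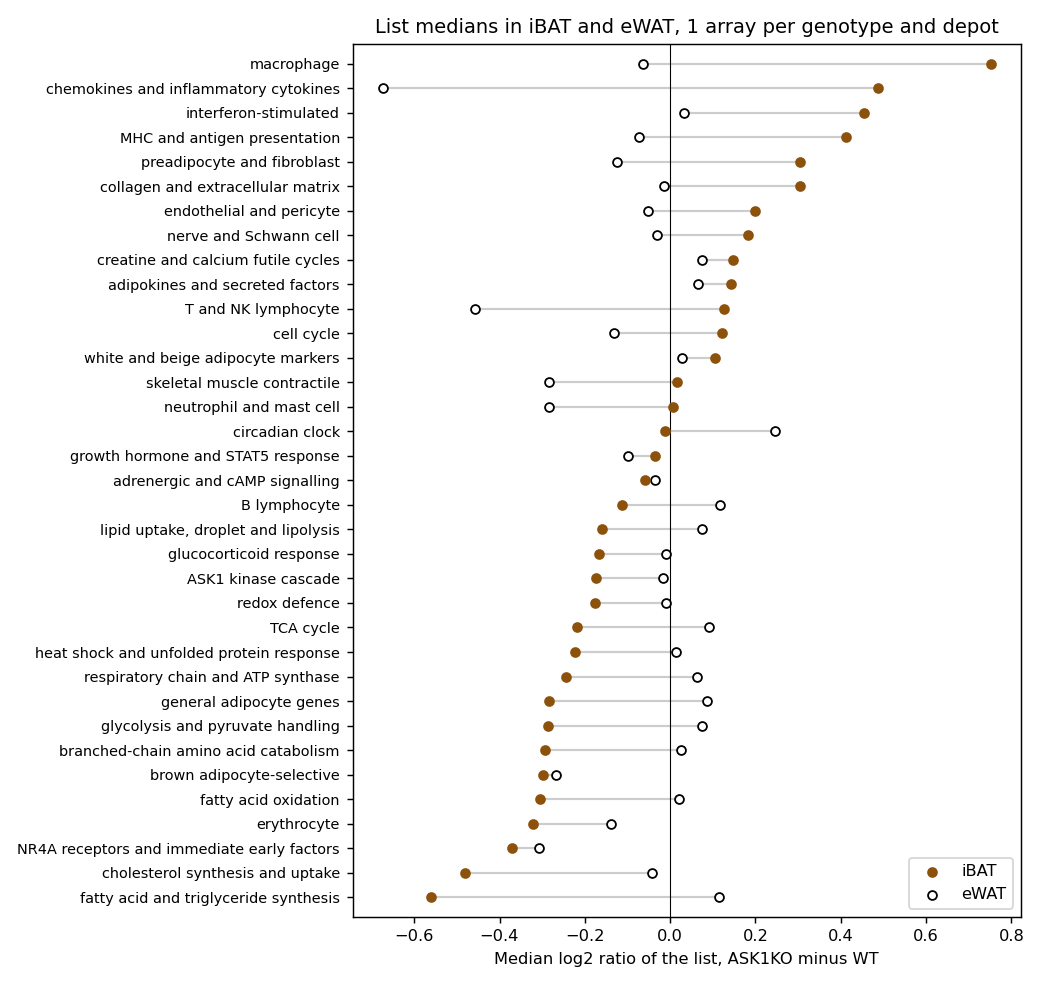
Median log2 ratio (ASK1KO minus WT) of 35 gene lists in iBAT (brown) and eWAT (open circles), 1 array per genotype and depot, ordered by the iBAT value. The list of liver-type secreted genes is left out, since its eWAT median of -3.61 lies far off the axis. The widest gap is that of chemokines and inflammatory cytokines, 0.49 in iBAT and -0.67 in eWAT. The medians of the brown adipocyte-selective list, -0.30 and -0.27, lie close although its members differ, with Ucp1 at -0.44 in iBAT and -4.63 in eWAT.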

How the data were processed

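RNA mixed from 3 male mice aged 10 weeks was hybridized to each of 4 one-colour Agilent arrays, 1 for each genotype and depot. Genotype and depot were taken from the sample labels. The authors deposited the output of Agilent Feature Extraction (version 10.7.3.1 per the file headers), whose processed signal, a linear intensity, is corrected for background, with surrogate values for dim spots and no scaling between arrays. They also deposited a series table, whose signal in each column is the processed signal divided by 1 constant that brings the median to about 1.

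Control spots and spots flagged as outliers were left out, the log2 of the deposited intensity was taken, probes printed on several spots were averaged, and each array was scaled by its 75th percentile. Subtracting a percentile assumes that the arrays hold similar amounts of most transcripts. Well above background is the call of the scanner software. On the iBAT arrays 28985 of 55681 probes were so called in WT and 30529 in ASK1KO, the 75th percentile of the signal was 356 and 371, and the lowest signal well above background was 19.7 and 17.3. A gene has the mean log2 ratio (ASK1KO minus WT) of those of its probes that both iBAT arrays called well above background. Signals printed in the text are before scaling. Probes were named through the RefSeq gene table, 26762 by accession, 3819 by symbol and 639 by a unique synonym, and 24461 were left unnamed. Probe positions (mm9) come from the files, and promoter sequences are those of RefSeq on GRCm38.p6.

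No test was run, since each condition has 1 array. Gene lists were described by counts and medians beside the same over all genes. The genes named are Map3k5, those the study measured in iBAT, the 15 highest and 15 lowest genes with all probes on one side of 0 (predicted genes and Riken clones left out), the 6 largest bounds each way, and in each of the 36 lists up to 6 members with the largest ratio and the defining markers. Other members named or plotted were chosen after their values were seen. Some genes that meet the rule are not reported here. The 36 lists and the members of the comparison were chosen with earlier results of these data known. Alternatives were median centring, loess, quantile normalization, the series table, no scaling, a percentile over detected probes, normexp background correction (offset 50), no filter on dim probes, a signal of at least 100, the brightest probe, all gene names and a 1.5-fold threshold. The steps were tested on simulated data. The tools were limma 3.58.1 in R 4.3.3, and pandas 2.3.3, numpy 2.4.6 and matplotlib 3.10.9 in Python 3.11.15.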

Additional observations from a re-analysis of the deposited data

Results flagged for a closer look

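A few of the named genes were at least 2-fold higher in ASK1KO iBAT and at least 2-fold lower in ASK1KO eWAT, or the reverse. The log2 ratio of Mup20 was 1.95 in iBAT and -6.30 in eWAT, and Mup3 had 1.75 and -5.32. Serpina1a had 1.55, or 0.96 with normexp background correction, and -3.47, Serpina1c had 1.95 and -3.81, and Serpina1e had 1.78 and -3.96. These are secreted proteins made mainly by liver, and members of each family are so alike that 1 transcript may light several probes. In iBAT their signals were low, from 27.8 to 207 in WT, and in WT eWAT the Mup20 probes gave 7535 and 5719. Slc2a5, the fructose transporter, went the other way, with -1.60 in iBAT and 1.01 in eWAT. The difference between depots was not tested, since each depot has 1 array per genotype.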

How the results depend on the processing

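Each condition is 1 pool on 1 array, so the number of arrays limits the precision. All 36 list medians were recomputed under 10 alternatives. The sign was kept throughout by 30 of them and by 235 of 241 named genes, including all 65 that were at least 2-fold apart, of which 44 stayed at least 2-fold apart under each of these alternatives. The counts of genes at least 2-fold higher and lower, 121 and 147, became 39 and 69 with normexp background correction, of which 38 and 68 were among the original genes. They became 588 and 549 with no filter on dim probes, 60 and 79 with a signal of at least 100 on both arrays, and 657 and 615 with a 1.5-fold threshold. Under the other alternatives they lay between 89 and 179 and between 112 and 193. Taking the percentile over detected probes moved the median of all genes by 0.09 and median centring moved it by -0.08. The share on the higher side was 45.1%, and 58.7% and 32.7% under these, and 31.8% with the series table. The cause was not tested. No paired analysis was possible because each genotype has 1 array in iBAT, and for the same reason no array could be left out. The arrays share 1 slide, so no slide block could be fitted.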

Other observations

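Of 29 measured heat shock and unfolded protein response genes 21 lay below 0, beside 59.5% of all genes, with a median of -0.22 that became -0.11 after loess. Dnajb1, a partner of Hsp70, had signals of 23360 (WT) and 11497 (ASK1KO), and Hspa1a, an inducible Hsp70, gave 3498 and 2078. The transcription factor Atf4 had a log2 ratio of -0.44, whereas Ddit3 (CHOP) had 0.22 and Xbp1 0.28. Of 28 redox defence genes 23 lay below 0, with a median of -0.18 that became -0.11 after loess. Srxn1, which repairs peroxiredoxins, gave 5964 and 3802, and thioredoxin (Txn1), which binds ASK1, had -0.13.

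Clock genes had a median of -0.01 over 19 in iBAT, with no settled sign, and 0.25 in eWAT. Nr1d1 (REV-ERBα) had 0.96 in iBAT and 0.53 in eWAT, Dbp had 0.40 and 0.66, and Per2 had 0.38 and 0.79. Bhlhe40 had -1.01 and -0.89, and Arntl (BMAL1) had -0.58 and -0.99. The time of day at which the pools were collected is not given in the sources used here. Of 29 measured cell cycle genes 21 were above 0 beside 40.5% of all genes, and the median was 0.12, between 0.04 and 0.22 under the alternatives. At least 1.5-fold higher were 5, 17.2% against 4.54% of all genes, and 1 with normexp background correction. Ccna2 gave 28.1 in WT and 51.3 in ASK1KO and Plk1 76.4 and 139, both low signals.

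Secreted factors of fat had a median of 0.14 over 24 genes in iBAT, between 0.06 and 0.23 under the alternatives. Rbp4, the retinol carrier, had signals of 14579 (WT) and 9362 (ASK1KO), and leptin (Lep) had a log2 ratio of 0.44. White and beige adipocyte markers had a median of 0.10 over 12 genes, whose sign changed with the processing. Of these 7 were above 0 beside 40.5% of all genes, with Tbx1 at 0.71 and Nnat at 0.66. The 5 below 0 included Retn at -0.25 and Tnfrsf9 at -0.54, whose sign turned with no filter on dim probes. The summed scaled signal of the list was 148.7 in WT and 123.7 in ASK1KO. Nerve and Schwann cell genes had a median of 0.18 over 13, which became 0.02 with normexp background correction and with a signal of at least 100, and their summed scaled signal was 80.8 in WT and 65.5 in ASK1KO. Cdh19 had 0.91, or as low as 0.14 under the alternatives, and Prx, of myelin, had 0.60, whereas S100b had -0.50, Ngfr -0.24 and Mbp -0.16. The genes of the ASK1 cascade had a median of -0.17 over 21, or -0.13 after loess, those of lipid uptake and storage -0.16 over 25, or -0.06 after loess, B cell genes -0.11 over 6 and growth hormone and STAT5 targets -0.04 over 12. Of the liver-type secreted genes 13 were measured, 9 were above 0 beside 40.5% of all genes, and 5 were at least 2-fold higher, 38.5% against 0.836%, with a median of 0.50 that became 0.01 where a signal of at least 100 was required, and in eWAT it was -3.61.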
